A study of Rattus norvegicus with 2 samples.

Results

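The genes described here build, crosslink and cut the extracellular matrix: collagens, laminins, matrix metalloproteinases (Mmp) and their tissue inhibitors (Timp), proteases of the Adamts family, lysyl oxidases, and a set of matrix glycoproteins and proteoglycans. They were chosen by symbol and by name list, with earlier results of these data known. Of the 15443 genes with a named array probe, 81 belonged to them, with 107 probes. A further 47 symbols of the same kind, among them Lox, Lamb1, Nid1, Hspg2 and Fbln2, had no named probe and were not analysed here. Loxhd1 carries the letters of the lysyl oxidases without being one, and it was not measured on either array.

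Collagens are triple helices of alpha chains that form fibrils, beaded filaments or the sheet of the basement membrane, in which they are joined to laminins by nidogens. Metalloproteinases cut these proteins, and each tissue inhibitor blocks many of the metalloproteinases by binding their active site. In the embryonic brain the vessels and the meninges make most of the fibrillar collagen, while neural precursors make laminins, proteoglycans, proteases and inhibitors that shape the niche around them.

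Neural precursor cells were taken from the cortex of SD rat embryos at day 14 and grown in N2 medium with 10 ng/mL bFGF, a fibroblast growth factor that keeps such cells dividing. All cells received 4 µg of plasmid by a transient nucleofection, either MSCV-IRES-EGFP (the empty vector, here "vector cells") or the same plasmid with rat Bcl-2, which blocks mitochondrial cell death (here "Bcl-2 cells"). The withdrawal array set vector cells without bFGF (red, Cy5), kept for 2 days in NB medium to start differentiation, against vector cells with bFGF (green, Cy3). The Bcl-2 array set, by its sample labels, Bcl-2 cells with bFGF (red, Cy5) against vector cells with bFGF (green, Cy3). The design text of the series names another pair, vector cells without bFGF and Bcl-2 cells with bFGF, so the labels do not settle what the green channel of this array held. Each comparison rests on 1 array with no dye swap and no replicate, so no difference below has a test, and the number of arrays limits the precision. The withdrawal of bFGF came with a change of medium, and the effects of both cannot be told apart. How many cells took up the plasmid is not given in the sources used here. In bulk RNA, fewer cells of a type and less RNA per cell cannot be told apart.

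The probe of Bcl2, the transfected gene, read 617 in vector cells without bFGF against 469.7 in vector cells with bFGF on the withdrawal array. On the Bcl-2 array it read 539 in Bcl-2 cells with bFGF and 548 in vector cells with bFGF, a log2 ratio of -0.02. The sources used here do not place this probe within the gene, so it is a weak check of the plasmid. All 10 neural precursor markers looked for, Nes and Sox2 among them, were measured on the withdrawal array, and 9 on the Bcl-2 array, where Msi1 was not. Gfap was not well above background on either array. Across 42011 spots, Pearson's r between the log2 ratios of both arrays was -0.68, and it was -0.17 for the ratios made by the scanner software Feature Extraction. The green channels, labelled as the same vector cells with bFGF, had log2 differences with an SD of 0.38 over 17301 probes well above background in all 4 channels. The SD was 0.14 between green of the Bcl-2 array and red of the withdrawal array, and 0.15 between red of the Bcl-2 array and green of the withdrawal array. Over the 50 such probes of the matrix genes the SD was 0.60 between the green channels, 0.13 between green of the Bcl-2 array and red of the withdrawal array, and 0.34 between red of the Bcl-2 array and green of the withdrawal array. In the authors' deposited table of ratios, column 2 equalled both arrays' ratios multiplied, where the sample labels would have it be the Bcl-2 ratio alone. If the green channel of the Bcl-2 array held vector cells without bFGF, each ratio of that array below would be Bcl-2 cells with bFGF over vector cells without bFGF, and that column would be Bcl-2 over vector cells, both with bFGF. Groups and directions are given as the samples are labelled, and which RNA that channel held was not tested. With the sign of an array turned, each gene described as higher on it becomes lower.

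As labelled, matrix genes that passed the 2-fold limit were all higher without bFGF and all lower with Bcl-2. A gene was measured on an array if it was well above background in at least 1 channel, and it was counted if its log2 ratio was 1 or more from 0 with all its probes of one sign. On the withdrawal array, 7 of the 56 measured matrix genes (12.5%) were at least 2-fold higher in vector cells without bFGF, where 2.42% of all 10852 measured genes were. None of the 56 (0) were at least 2-fold lower, where 0.470% of all genes were. The 7 were Col5a3, Sparc, Mmp2, Mmp11, Timp2, Timp3 and Timp4. On the Bcl-2 array, 8 of 48 (16.7%) were at least 2-fold lower in Bcl-2 cells, where 2.00% of all 10241 measured genes were, and 0 were at least 2-fold higher, where 0.557% were. The 8 were Col5a3, Col1a1, Col1a2, Col3a1, Col6a2, Sparc, Timp2 and Timp4. With the sign turned, 7 would be lower on the withdrawal array and 8 higher on the Bcl-2 array. Both comparisons share a control by label, so their values are set side by side below and are not independent.

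**Figure D1:**
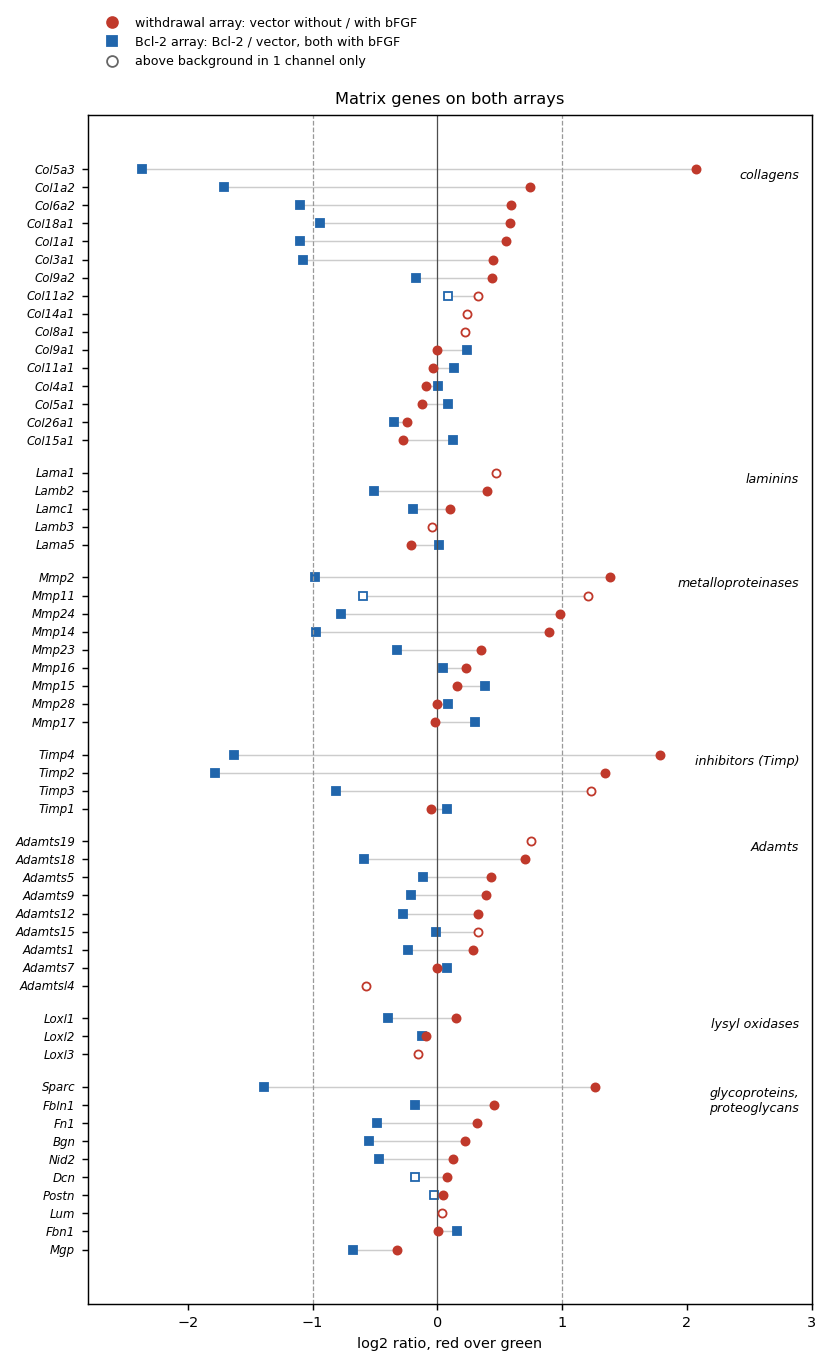
Log2 ratio of red over green (x axis) for each of the 56 measured matrix genes, grouped by family from top to bottom. Circles are vector cells without over with bFGF on the withdrawal array, squares are Bcl-2 over vector cells on the Bcl-2 array, open symbols mark genes well above background in 1 channel, and dashed lines mark -1 and 1. Of the 7 circles right of 1, Col5a3 lies furthest out at 2.08, and its square lies furthest left at -2.36.

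Some genes could be counted only because the channel in which they were bright carried them over background. Leaving these out, 5 of 44 matrix genes well above background in both channels were at least 2-fold higher on the withdrawal array, where 2.42% of all 9794 such genes were. On the Bcl-2 array 8 of 44 were at least 2-fold lower, where 2.2% of all 9535 were. The median log2 ratio of the measured matrix genes was 0.26 on the withdrawal array, where that of all genes was 0.03, and -0.25 on the Bcl-2 array, where that of all genes was -0.01. With the sign turned these medians are -0.26 and 0.25. Of the 56, 40 lay above 0 on the withdrawal array, and of the 48, 34 lay below 0 on the Bcl-2 array. By the ratio of Feature Extraction, 14 matrix genes were past the limit upward and 2 downward on the withdrawal array, where 8.17% and 2.18% of all genes were. By the same ratio 14 were at least 2-fold lower and 0 higher on the Bcl-2 array, where 6.74% and 3.50% of all genes were.

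**Figure D2:**
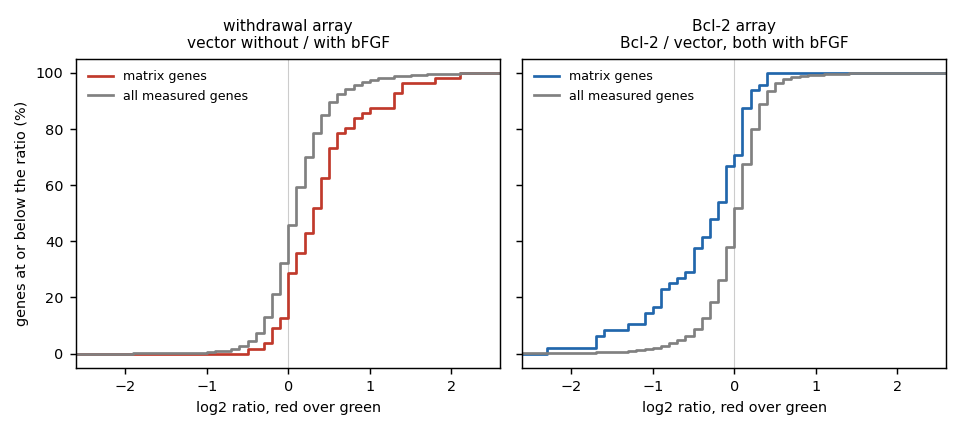
Share of genes at or below each log2 ratio (y axis, percent), in steps of 0.1 along the x axis, for the measured matrix genes (coloured line) and all measured genes (grey line). The left panel is the withdrawal array, with 56 of 10852 genes, and the right panel the Bcl-2 array, with 48 of 10241. The coloured line lies to the right of the grey one on the left, with medians of 0.26 and 0.03, and to the left of it on the right, with medians of -0.25 and -0.01.

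The plot of cumulative shares shows that the matrix genes differed from all genes over much of the range and not at the ends alone. At a log2 ratio of 0, 28.6% of the matrix genes and 45.8% of all genes lay at or below it on the withdrawal array, and 70.8% and 51.8% on the Bcl-2 array. This describes 1 array each.

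Chains of the fibrillar collagens I and III, which give tissue its tensile strength, were at least 2-fold lower in Bcl-2 cells, and the type V chain Col5a3 stood furthest out on both arrays. Of 16 collagens measured on the withdrawal array 1 was at least 2-fold higher, where 2.42% of all genes were. Of 14 on the Bcl-2 array 5 were at least 2-fold lower, where 2.00% of all genes were. The median log2 ratios were 0.28 and -0.26. Col5a3, a chain of type V collagen, which sits inside type I fibrils and limits their width, read 11217 in vector cells without bFGF against 2659.7 (normalised intensity) in vector cells with bFGF on the withdrawal array. On the Bcl-2 array it read 2269.8 in Bcl-2 cells and 11678 in vector cells. The log2 ratios were 2.08 for withdrawal and -2.36 for Bcl-2, from 1 probe, with a deposited spot error of 0.28 and 0.30 on the log2 scale. That is 4.22-fold higher without bFGF and 0.194 of the vector level with Bcl-2. Its neighbour in type V collagen, Col5a1, had log2 ratios of -0.12 and 0.08 on the withdrawal and Bcl-2 arrays, so the chains of this collagen did not run together.

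Both chains of type I collagen, the main fibril of skin, bone and meninges, were lower in Bcl-2 cells. Col1a2 read 4563 in vector cells without bFGF against 2725 in vector cells with bFGF, a log2 ratio of 0.74, and 1349 in Bcl-2 cells against 4423 in vector cells with bFGF, a log2 ratio of -1.71 with a spot error of 0.26. Col1a1 read 1294 without bFGF against 885 with it, a log2 ratio of 0.55, and 578 in Bcl-2 cells against 1242 in vector cells, a log2 ratio of -1.10. The 2 probes of Col1a1 gave 0.31 and 0.79 on the withdrawal array and -0.71 and -1.49 on the Bcl-2 array, one sign on each array but unequal in size. In both chains the Bcl-2 cells gave the lowest of the 4 readings.

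Col3a1, the type III chain of elastic tissues and vessel walls, read 996 in vector cells without bFGF against 730.3 in vector cells with bFGF (log2 ratio 0.45), and 428 in Bcl-2 cells against 902 in vector cells (-1.08). Col6a2, a chain of the type VI microfilaments around cells, read 1061 without bFGF against 706 with it (0.59), and 476 in Bcl-2 cells against 1022 in vector cells (-1.10). Both lay just inside the 2-fold limit on the Bcl-2 array, and Col18a1, a basement membrane collagen whose tail gives endostatin, lay just outside it at -0.94, with 0.58 on the withdrawal array. By the Feature Extraction ratio Col18a1 was past the limit on the Bcl-2 array, at -1.99. For these genes, too, the lowest reading was that of Bcl-2 cells.

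By the loess ratio the other collagens moved less. Col4a1, the main basement membrane chain, had log2 ratios of -0.09 and 0.01 on the withdrawal and Bcl-2 arrays, and its 2 probes gave -0.23 and 0.05 on the first. Col9a1 and Col9a2, chains of the cartilage type IX, were at 0.00 and 0.44 on the withdrawal array and at 0.24 and -0.17 on the Bcl-2 array. The minor fibrillar chain Col11a1 was at -0.03 and 0.14, and Col15a1, of basement membranes, was lowest of the collagens on the withdrawal array at -0.27, with 0.13 on the Bcl-2 array. Col26a1 was below 0 on both arrays, at -0.24 and -0.35. Col11a2, Col8a1 and Col14a1 were well above background in red alone on the withdrawal array, with log2 ratios of 0.22 to 0.32 there. By the Feature Extraction ratio Col8a1 was at 1.76 and Col11a2 at 1.07 on that array, both past the limit, and Col14a1 at 0.23. Col2a1, Col7a1, Col4a4, Col13a1 and Col23a1 were not well above background in any channel.

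Laminins, the cross-shaped trimers of the basement membrane, showed no gene past the limit by the loess ratio. Lamb2, the beta chain of nerve and muscle synapses, read 1232 in vector cells without bFGF against 933 in vector cells with bFGF, a log2 ratio of 0.40, and 843 in Bcl-2 cells against 1198 in vector cells, a log2 ratio of -0.51. Lamc1, the gamma chain shared by most laminins, was at 0.10 and -0.19, and its probe printed in 9 spots gave 0.21 ± 0.02 and -0.12 ± 0.03 (SD over spots of 1 array). Lama5 was at -0.21 and 0.01. Lama1, at 0.47 on the withdrawal array, was at least 1.25-fold higher, since green was not well above background, and Lamb3, at -0.04, was measured in green alone. By the Feature Extraction ratio Lama1 was at 2.23 and Lamb3 at -1.10 on the withdrawal array, both past the limit. Over 5 laminins the median log2 ratio was 0.10 on the withdrawal array, and over 3 it was -0.19 on the Bcl-2 array. Lamc3 was not well above background.

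Of the glycoproteins and proteoglycans, Sparc alone passed the limit. Sparc, a secreted protein that binds collagen and loosens cell contacts, read 18865 in vector cells without bFGF against 7861 in vector cells with bFGF, and 7588 in Bcl-2 cells against 19833 in vector cells. The log2 ratios were 1.26 for withdrawal and -1.39 for Bcl-2, from 1 probe with a spot error of 0.24 on each. The channels of vector cells without bFGF and of vector cells on the Bcl-2 array read alike, and so did the remaining pair.

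Mgp, which keeps soft tissue from calcifying, ran another way: it read 457 in vector cells without bFGF against 572 in vector cells with bFGF (log2 ratio -0.32), and 280.3 in Bcl-2 cells against 448 in vector cells (-0.68). It was the lowest of the group on the withdrawal array. Fn1, the fibronectin gene that anchors integrins, was at 0.32 and -0.48 on the withdrawal and Bcl-2 arrays, and Nid2, a nidogen that ties laminin to type IV collagen, at 0.13 and -0.47. Fbn1, of elastic microfibrils, was at 0.00 and 0.15, the highest of the group on the Bcl-2 array. Fbln1, a fibulin of basement membranes, was at 0.45 and -0.18.

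Among the small leucine-rich proteoglycans, which coat collagen fibrils, the probes of Bgn disagreed on the Bcl-2 array. Its brighter probe read 1484 in Bcl-2 cells against 3569 in vector cells, a log2 ratio of -1.27, and its dimmer probe 152 against 135, a log2 ratio of 0.17. For withdrawal the brighter probe was at 0.47 and the dimmer at -0.02. The gene value, the median of both, was 0.23 and -0.55 and did not count as 2-fold. Dcn was at 0.08 and -0.18, and Lum at 0.04 on the withdrawal array alone, each near background. Postn, a fibroblast matrix protein, was at 0.05 and -0.02, and Fbln5 was not well above background.

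**Figure D3:**
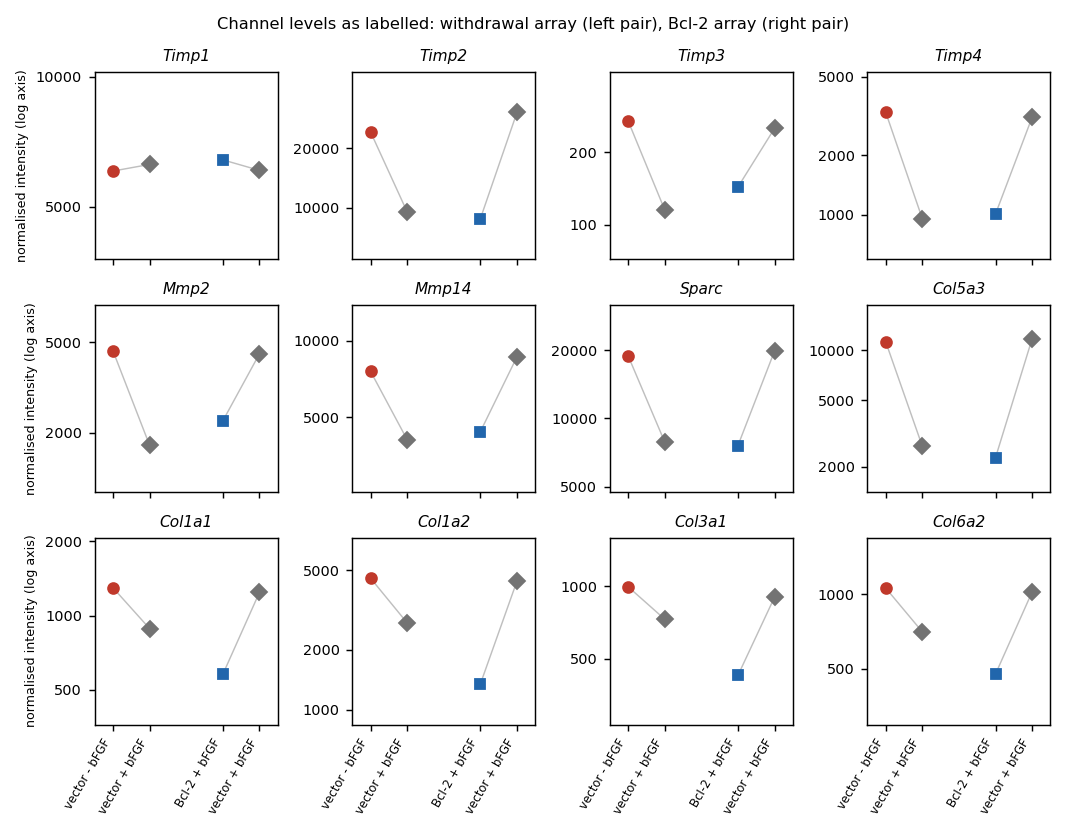
Normalised intensity (y axis, logarithmic, scaled to each gene) of 12 matrix genes in the 4 channels, as labelled: vector cells without bFGF and vector cells with bFGF on the withdrawal array, then Bcl-2 cells with bFGF and vector cells with bFGF on the Bcl-2 array. Each point is 1 channel of 1 array, and Timp2 reads 24193, 9542, 8839 and 30448 from left to right, while Timp1 reads 6045 to 6417 in all 4.

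The plot of channel levels shows 3 shapes. Timp1 is level across the channels. Timp2, Timp3, Timp4, Mmp2, Mmp14, Sparc and Col5a3 form a V, with both low readings in the middle. Col1a1, Col1a2, Col3a1 and Col6a2 also have both low readings in the middle, but unequal ones, with Bcl-2 cells far lower. Col1a2 read 4563, 2725, 1349 and 4423 from left to right.

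Mmp2 and Mmp11 were at least 2-fold higher without bFGF, and Mmp14 and Mmp24 came close to the limit. Of 9 measured Mmp genes, 2 were at least 2-fold higher on the withdrawal array, where 2.42% of all genes were. On the Bcl-2 array 0 of 9 were at least 2-fold lower, where 2.00% of all genes were. The median log2 ratios were 0.35 and -0.32. Mmp2, gelatinase A, which cuts type IV collagen and denatured collagen, read 4575 in vector cells without bFGF against 1758 in vector cells with bFGF, and 2256.5 in Bcl-2 cells against 4451 in vector cells. For withdrawal its log2 ratio was 1.38, with 1.31 and 1.45 from its 2 probes, and for Bcl-2 it was -0.98, just outside the limit, with -0.94 and -1.02. Mmp14, the membrane-bound enzyme that activates the Mmp2 proenzyme, read 7560.4 without bFGF against 4076 with it, and 4391 in Bcl-2 cells against 8637 in vector cells. It was printed in 10 spots per array, which gave log2 ratios of 0.89 ± 0.02 and -0.98 ± 0.02 (SD over spots), so the spots of this gene varied far less than its channels differed.

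Mmp24, a membrane-type enzyme known from the nervous system, lay just outside the limit on the withdrawal array, at 0.99, with 2439.8 in vector cells without bFGF against 1232 in vector cells with bFGF. On the Bcl-2 array it was at -0.77, with 1316 in Bcl-2 cells against 2249.8 in vector cells. Mmp11, stromelysin-3, read 226 without bFGF and was not well above background with bFGF, at least 2.31-fold higher, with a log2 ratio of 1.21. It was not well above background in Bcl-2 cells either, and vector cells on that array read 188, at least 1.51-fold higher than Bcl-2 cells. Both readings of Mmp11 rest on 1 dim probe.

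The remaining membrane-type enzymes did not follow Mmp14. Mmp15 was at 0.16 and 0.38 on the withdrawal and Bcl-2 arrays, the highest of the family on the second, and its 2 probes gave -0.11 and 0.42 on the first. Mmp16 was at 0.23 and 0.04, and Mmp17, which is held by a lipid anchor, at -0.02 and 0.30. Mmp23 was at 0.35 and -0.32, and the epilysin Mmp28 at -0.01 and 0.08. The secreted collagenases and stromelysins Mmp1, Mmp3, Mmp8, Mmp10 and Mmp13, the matrilysin Mmp7, the elastase Mmp12, the gelatinase Mmp9 and Mmp19, Mmp20, Mmp21 and Mmp27 were not well above background on either array.

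Of the 4 tissue inhibitors, 3 were at least 2-fold higher without bFGF and 2 at least 2-fold lower with Bcl-2, and Timp1 was level. Over all genes these shares were 2.42% and 2.00%. Timp2, which blocks Mmp2 and also bridges its proenzyme to Mmp14, read 24193 in vector cells without bFGF against 9542 in vector cells with bFGF, a log2 ratio of 1.34 with a spot error of 0.24. It read 8839 in Bcl-2 cells against 30448 in vector cells, a log2 ratio of -1.78 with a spot error of 0.26. Timp4, the inhibitor known best from heart and brain, read 3300.2 without bFGF against 956 with it, and 1008.5 in Bcl-2 cells against 3112 in vector cells. Its 2 probes gave 1.70 and 1.87 on the withdrawal array and -1.51 and -1.74 on the Bcl-2 array. Timp2 and Timp4 thus had low readings in vector cells with bFGF on the withdrawal array and in Bcl-2 cells.

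Timp3, which stays bound to the matrix and also blocks Adam and Adamts proteases, read 269.9 in vector cells without bFGF against 115 in vector cells with bFGF, where it was not well above background. It was at least 2.34-fold higher, with a log2 ratio of 1.23. On the Bcl-2 array it read 143 in Bcl-2 cells against 252 in vector cells, a log2 ratio of -0.81. Timp1, often induced in injured tissue, read 6045 without bFGF against 6264 with it, and 6417 in Bcl-2 cells against 6067 in vector cells. Its 10 spots gave log2 ratios of -0.05 ± 0.02 and 0.08 ± 0.02 (SD over spots). The family median was 1.29 on the withdrawal array and -1.22 on the Bcl-2 array (-1.29 and 1.22 with the sign turned).

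The promoters of the 4 inhibitors are shown because members of 1 family differed on the arrays, and those of Col1a2 and Col5a3 because these were the collagens furthest from 0 on the Bcl-2 array. Each is the 250 bases before the annotated start from RefSeq, build GRCr8, written 5′ to 3′ in the gene's direction: Timp1 at chrX:3771123-3771372 (minus strand), Timp2 at chr10:104089215-104089464 (minus), Timp3 at chr7:19459559-19459808 (minus), Timp4 at chr4:149985205-149985454 (minus), Col1a2 at chr4:33518307-33518556 (plus) and Col5a3 at chr8:27625949-27626198 (minus). Capitals mark matches on either strand. The motifs searched were the TATA box with the letters TATAAA, the GC box with the letters GGGCGG, the AP-1 site with the letters TGANTCA, and the box named for its own letters CCAAT. No matches overlapped in these sequences.
Timp1: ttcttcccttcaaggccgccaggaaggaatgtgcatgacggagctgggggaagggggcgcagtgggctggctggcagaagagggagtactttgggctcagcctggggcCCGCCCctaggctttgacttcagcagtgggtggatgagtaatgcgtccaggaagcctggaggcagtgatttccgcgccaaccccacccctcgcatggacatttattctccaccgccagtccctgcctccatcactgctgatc
Timp2: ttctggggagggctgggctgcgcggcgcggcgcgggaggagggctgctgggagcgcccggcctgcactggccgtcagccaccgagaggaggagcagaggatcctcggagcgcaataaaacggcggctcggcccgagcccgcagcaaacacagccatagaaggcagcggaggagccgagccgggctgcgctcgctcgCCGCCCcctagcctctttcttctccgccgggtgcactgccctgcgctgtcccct
Timp3: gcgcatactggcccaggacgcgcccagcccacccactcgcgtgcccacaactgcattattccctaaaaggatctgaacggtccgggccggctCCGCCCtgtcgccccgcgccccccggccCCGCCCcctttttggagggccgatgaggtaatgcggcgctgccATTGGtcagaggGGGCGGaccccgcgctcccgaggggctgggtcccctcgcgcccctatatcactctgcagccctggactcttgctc
Timp4: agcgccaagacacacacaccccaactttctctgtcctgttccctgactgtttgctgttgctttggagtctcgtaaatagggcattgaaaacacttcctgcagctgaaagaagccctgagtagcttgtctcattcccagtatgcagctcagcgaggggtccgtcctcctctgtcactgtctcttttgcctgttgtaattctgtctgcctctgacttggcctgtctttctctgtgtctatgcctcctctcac
Col1a2: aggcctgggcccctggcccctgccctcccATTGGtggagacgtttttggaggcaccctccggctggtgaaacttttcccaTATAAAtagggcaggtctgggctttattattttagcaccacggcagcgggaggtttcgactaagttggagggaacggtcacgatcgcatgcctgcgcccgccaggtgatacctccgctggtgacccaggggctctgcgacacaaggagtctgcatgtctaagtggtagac
Col5a3: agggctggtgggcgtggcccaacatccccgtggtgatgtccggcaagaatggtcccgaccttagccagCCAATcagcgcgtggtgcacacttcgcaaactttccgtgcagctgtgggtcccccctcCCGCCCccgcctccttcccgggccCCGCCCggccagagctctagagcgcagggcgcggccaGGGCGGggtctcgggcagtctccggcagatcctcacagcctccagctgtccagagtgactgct

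Timp1 and Timp2 each held 1 GC box in the window that runs from 250 bases before the start to 50 after it, while Timp3 held 3 and a CCAAT box. Timp4 held none of these motifs, and its window had 50.3% G and C bases against 70.3% in Timp2 and 61.3% in Timp1. Col1a2 held a TATA box and a CCAAT box, and Col5a3 held a CCAAT box and 3 GC boxes. Over 33469 RefSeq promoters of the same length, 14.2% held the TATA box, 37.5% the CCAAT box, 33.1% the GC box and 7.33% the AP-1 site. Over the 59 promoters matched to 58 of the 81 matrix genes these shares were 23.7%, 27.1%, 44.1% and 11.9%, and the median share of G and C was 61.3% against 51.7% over all promoters. Over the 37 promoters of measured matrix genes the shares were 10.8%, 29.7%, 54.1% and 0.0%, so those of the TATA box and the AP-1 site lay above the share of all promoters in one set and below it in the other. A match is a run of letters and not a site, and a window without one says nothing about the factor.

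No Adamts gene passed the limit by the loess ratio. These secreted proteases trim proteoglycans and procollagens. The 9 measured on the withdrawal array had a median log2 ratio of 0.33, and the 7 on the Bcl-2 array a median of -0.21. Adamts18 was furthest from 0 on both arrays among genes measured in both channels: it read 243 in vector cells without bFGF against 149 in vector cells with bFGF (0.70), and 146 in Bcl-2 cells against 219.6 in vector cells (-0.58). By the Feature Extraction ratio it was at 1.40 and -1.59, past the limit on both arrays. Adamts19, at 0.75, was at least 1.48-fold higher without bFGF, being well above background in that channel alone. Adamtsl4, a family member without protease activity, was the lowest at -0.57 and was measured in green alone. By the Feature Extraction ratio Adamts19 was at 1.91 and Adamtsl4 at -2.97 on the withdrawal array, both past the limit.

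Adamts1, Adamts5, Adamts9 and Adamts15, which cut versican and aggrecan, were at 0.28, 0.43, 0.39 and 0.33 on the withdrawal array and at -0.23, -0.11, -0.21 and -0.01 on the Bcl-2 array. By the Feature Extraction ratio Adamts15, at 1.21, and Adamts5, at 1.07, were past the limit on the withdrawal array. Adamts12 was at 0.33 and -0.27. Adamts7 read 8541 in vector cells without bFGF and 8542 in vector cells with bFGF, a log2 ratio of 0.00, and was at 0.08 on the Bcl-2 array. Of this family, Adamts4, Adamtsl3 and Adamtsl5 were not well above background.

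The lysyl oxidases, which crosslink collagen and elastin, had no gene past the limit by the loess ratio. Loxl1 was at 0.15 and -0.39 on the withdrawal and Bcl-2 arrays, Loxl2 at -0.09 and -0.12, and Loxl3, near background, at -0.16 on the withdrawal array. By the Feature Extraction ratio Loxl1 was past it on the Bcl-2 array, at -1.43. Loxl4 was not well above background.

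A further 123 matrix genes that the symbols above leave out were looked at by list: collagen processing enzymes, elastic fibre genes, matricellular proteins, proteoglycans, and other proteases with their inhibitors. On the withdrawal array 5 of 90 measured were at least 2-fold higher and 1 lower, where 2.42% and 0.470% of all genes were. On the Bcl-2 array 0 of 81 were higher and 4 lower, where 0.557% and 2.00% of all genes were. The median log2 ratios were 0.19 and -0.20. Sulf2, an enzyme that trims heparan sulfate and so alters growth factor binding, read 11293 in vector cells without bFGF against 3856 in vector cells with bFGF (1.55), and 4417 in Bcl-2 cells against 10644 in vector cells (-1.27). Gpc4, a heparan sulfate proteoglycan of precursor cells, was at 1.10 and -1.12, and A2m, a broad trap for proteases, at 1.20 and -1.02. These 3 passed the limit on both arrays.

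Tnr, Ccn2, Fbn2 and Hapln3 passed it on 1 array each and were picked out after their values were seen. Tnr, a tenascin of the nervous system, was at 1.02 on the withdrawal array and -0.85 on the Bcl-2 array, and Ccn2, connective tissue growth factor, at 1.04 and -0.69, with green not well above background on the first. Fbn2, the fibrillin of embryonic microfibrils, was the 1 lower gene on the withdrawal array, at -1.02, and was at 0.81 on the Bcl-2 array. Hapln3, a link protein for hyaluronan, was at 0.92 and -1.02.

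The genes that mature collagen lay on both sides of 0 on each array. Of 20 measured on the withdrawal array and 18 on the Bcl-2 array 0 passed the limit, with medians of 0.09 and -0.16. Over all genes 2.42% were higher on the first and 2.00% lower on the second, so counts of 0 are near those shares. On the withdrawal array 14 lay above 0 and 6 below, and on the Bcl-2 array 4 above and 14 below. Among those picked out after their values were seen, the prolyl hydroxylase P4ha1 was at -0.83 and 0.70, the lysyl hydroxylase Plod1 at 0.86 and -0.89, Pcolce, which speeds up the trimming of procollagen, at 0.75 and -0.95, and the collagen chaperone Serpinh1 at 0.24 and -0.44.

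**Figure D4:**
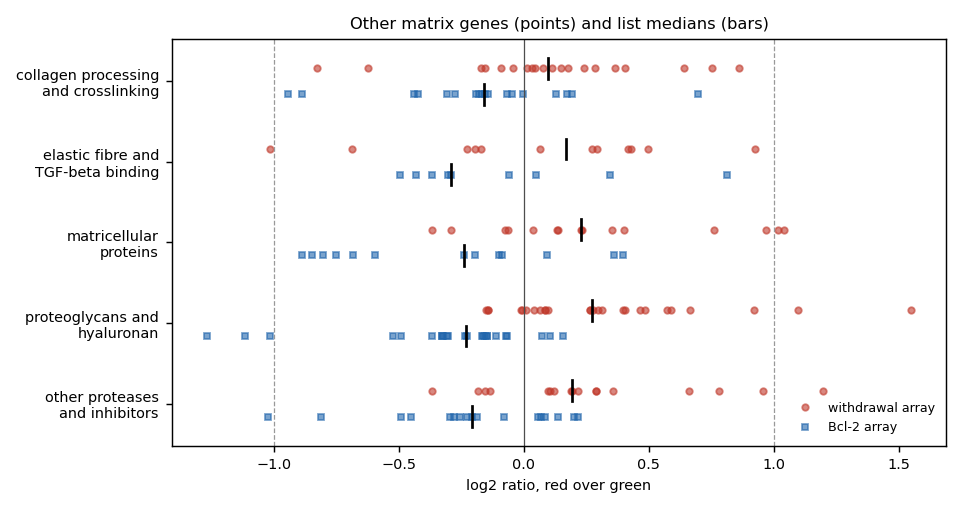
Log2 ratio of red over green (x axis) of each other matrix gene, by list (rows), with circles for vector cells without over with bFGF on the withdrawal array and squares for Bcl-2 over vector cells on the Bcl-2 array. Black bars are list medians, which run from 0.09 to 0.27 on the withdrawal array and from -0.29 to -0.16 on the Bcl-2 array, and dashed lines mark -1 and 1.

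The plot of the other matrix genes shows most points of every list between the dashed lines. All 5 medians lie above 0 on the withdrawal array and below 0 on the Bcl-2 array. That of the collagen processing list, 0.09, lies closest to the 0.03 of all genes.

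Markers of cells that make fibrillar collagen were looked at beside these values. Over all genes 2.42% passed the limit upward on the withdrawal array and 2.00% downward on the Bcl-2 array. Of 15 fibroblast and meninges markers with a probe, 11 were measured, and 0 passed the limit on either array, a count near those shares. Their summed level was 7340.2 in vector cells without bFGF against 5595 in vector cells with bFGF, and 5376 in Bcl-2 cells against 7128 in vector cells. The largest parts came from Pdgfra, also a marker of the oligodendrocyte lineage, at 2492, 1744, 1665 and 2310 in that order, and from S100a4, at 1802, 1245, 1175 and 1770. Twist1, Tbx18 and Cdh11 read near background. Twist2, Slc6a13, Aldh1a2 and Osr1 were not well above background, and the median log2 ratios were 0.21 and -0.21. Of 13 pericyte and smooth muscle markers 8 were measured, and the contractile genes Acta2, Tagln and Myl9 passed the limit upward on the withdrawal array (2.19, 3.23 and 1.95) and downward on the Bcl-2 array (-1.93, -3.02 and -2.38). The summed level of that list was 13102 without bFGF against 3146 with it, and 2896 in Bcl-2 cells against 13408 in vector cells. The list medians were 0.27 and -0.27, and most of the sum came from Tagln and Myl9, the second of which read 6353 in vector cells without bFGF against 1645 in vector cells with bFGF. Anpep ran the other way, at -0.50 and 0.27. Of the same list Notch3 was at 0.18 and -0.30, Myh11 at 0.33 and -0.23, and, near background, Pdgfrb at 0.20 and -0.05 and Des at 0.18 and -0.08. The pericyte markers Rgs5, Kcnj8 and Abcc9 were not well above background.

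Of 11 endothelial markers 8, Pecam1 and Cldn5 among them, were not well above background in any channel. Of 10 astrocyte markers 9 were measured, all but Gfap, with 3 past the limit upward on the withdrawal array and 3 downward on the Bcl-2 array. Over all genes these shares were 2.42% and 2.00%. Aldh1l1 and Apoe passed it on both arrays, S100b on the withdrawal array and Glul on the Bcl-2 array. The summed level of the astrocyte markers was 42933 in vector cells without bFGF against 19575 in vector cells with bFGF, and 20026.5 in Bcl-2 cells against 42985.5 in vector cells. Most of the first gap came from Apoe, at 11215 against 966, and Slc1a3, at 18374 against 10913. Gja1 was at 0.19 and -0.26, and Aqp4 at 0.12 and -0.42. The 7 measured neuron markers had medians of 0.50 and -0.34, and Tubb3, a neuronal tubulin, was past the limit on the withdrawal array at 1.03, with -0.58 on the Bcl-2 array. The precursor markers had medians of 0.21 and -0.14, with 6 above 0 and 4 below it on the withdrawal array. Of these, Fabp7 was past the limit on that array at 1.26, with -0.91 on the Bcl-2 array. Vim ran the other way, at -0.49 and 0.56, as did Olig2, at -0.20 and 0.26. The part of these markers in the matrix values was not tested.

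Since both green channels carry the label of vector cells with bFGF, each red channel can also be set against the green channel of the other array, a choice made after seeing the data. Vector cells without bFGF then differed little from the cells labelled as vector with bFGF: over 48 matrix genes the log2 difference ran from -0.33 to 0.30, with a median of 0.06. None (0) reached -0.5 or 0.5, where 0.118% and 0.876% of all 10160 genes did, and 0 were at least 2-fold higher, where 0.217% were. Col5a3 was at -0.06, Sparc at -0.07, Timp4 at 0.08, Mmp2 at 0.04, Timp3 at 0.10, Mmp11 at 0.27 and Timp2, the lowest, at -0.33. The 7 genes counted on the withdrawal array thus lay between -0.33 and 0.27 against this green channel. Both channels were already alike over all probes (SD of 0.14), so small differences follow from that and are no check of the withdrawal ratios.

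Bcl-2 cells set against vector cells of the withdrawal array gave 7 of 48 matrix genes (14.6%) at -0.5 or below, where 0.295% of all 10160 genes were, and 0 at 0.5 or above, where 0.650% were. The 7 were Mgp at -1.03, Col1a2 at -1.01, Col3a1 at -0.77, Col26a1 at -0.69, Col1a1 at -0.61, Col6a2 at -0.57 and Col18a1 at -0.54. The first 2 were at least 2-fold lower, where 0.0394% of all genes were. Col5a3 was at -0.23, Timp2 at -0.11, Sparc at -0.05 and Timp4 at 0.08. Col1a1, Col1a2, Col3a1, Col6a2, Col18a1 and Mgp thus lay at -0.5 or below in Bcl-2 cells against either green channel, whichever cells that of the Bcl-2 array held. Col5a3, Sparc, Timp2 and Timp4 did so against the green channel of the Bcl-2 array alone. At the 2-fold limit only Col1a2 was lower against both green channels.

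**Figure D5:**
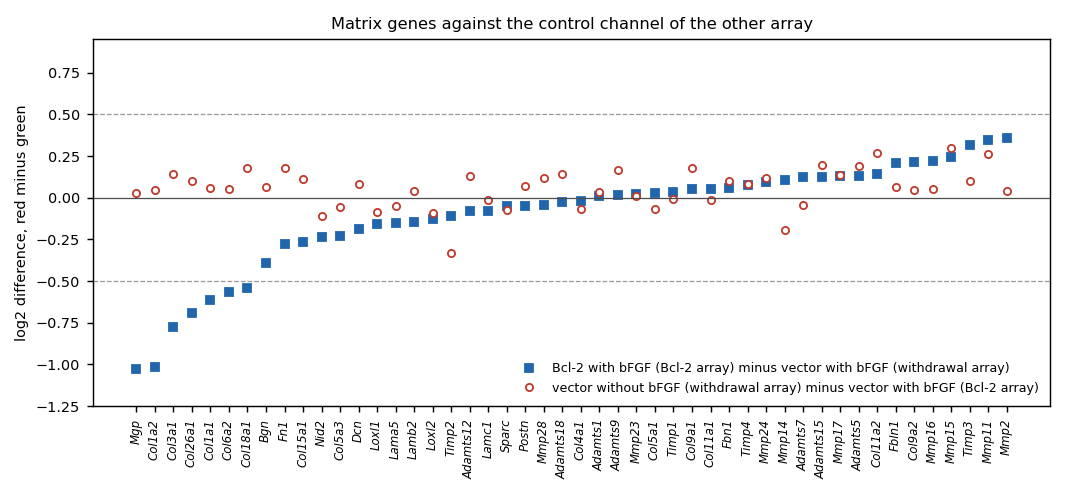
Log2 difference (y axis) of 48 matrix genes (x axis, ordered by the squares) when each red channel is set against the green channel of the other array. Squares are Bcl-2 cells with bFGF minus vector cells with bFGF of the withdrawal array, open circles are vector cells without bFGF minus vector cells with bFGF of the Bcl-2 array, and dashed lines mark -0.5 and 0.5. The 7 squares at or below -0.5 run from Mgp at -1.03 to Col18a1 at -0.54, while all circles lie between -0.33 and 0.30.

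These differences join channels of separate arrays and of separate dyes after the levels were scaled between arrays, so a bias of single probes for a dye is not removed from them. Between the red channels, which share a dye, Col1a2 read 1349 in Bcl-2 cells and 4563 in vector cells without bFGF, and Mgp 280.3 and 457. The order of the squares in the plot of differences puts 6 collagens and Mgp at the low end. Mmp2 and Mmp15 stand at the high end, at 0.36 and 0.24. Mmp11 and Timp3 lie there too, but Mmp11 was not well above background in either of the channels compared, and Timp3 not in green of the withdrawal array, so their places have no meaning.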

How the data were processed

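Total RNA of rat neural precursor cells was measured on 2 two-colour Agilent arrays of 1 slide, read in 1 scan. The deposited scanner files give spot and background intensity as medians over pixels, not normalized, and, per spot, a log10 ratio (red over green) and its error, made per the file headers with Feature Extraction 11.5.1.1 (protocol GE2_1105_Oct12, design 028282, build rn4). The submitters' processing notes name version 8.5.1.1. The value table that the authors deposited is on a linear ratio scale, with column medians of 0.932 and 0.944 and with scale, centring and direction not stated. Over 28395 probes and within 0.05 on the log2 scale, its first column equalled the withdrawal ratio for 100% of probes and its second the product of both ratios for 100%, so the quotient of the columns stood for the Bcl-2 array.

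Signals were background-corrected (normexp, offset 50) and loess-normalized within each array, and channel levels were scaled between arrays (Aquantile), in limma 3.58.1 under R 4.3.3, with counting in Python 3.11.15. Of 42877 gene spots, 534 and 576 outliers were left out on the withdrawal and Bcl-2 arrays, and 0 were saturated. Probes entered where 50% or more of their spots were well above background in either channel (20328 and 19026 probes), and a gene is the median of its kept probes. Names came from RefSeq accessions (assembly GRCr8), which covered 60.4% of probes. For an "at least" fold, the dim channel took its own signal or the array's lowest well-measured signal, whichever was higher, and dye bias is not removed. A spot error is the deposited error of the log ratio put on the log2 scale. It belongs to the Feature Extraction ratio and is set here beside the loess ratio. It is not the SD over spots: for Mmp14 on the withdrawal array it was 0.22, where that SD was 0.02. It does not cover the spread between cultures.

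Values were named by a rule: members at least 2-fold on an array, the highest and lowest of each family, members whose probes disagreed by 1 or more, and other matrix genes 2-fold on both arrays, with the remaining measured members added to account for all. The members and the lists were chosen with earlier results of these data known. Background offset, ratio, loess, dim probes, probe summary, value table, sign and control channel were varied. Of the members, 1 is not reported here by name.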

Additional observations from a re-analysis of the deposited data

Results flagged for a closer look

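Col5a3, Sparc, Timp2 and Timp4 were picked out because each was at least 2-fold higher in vector cells without bFGF on the withdrawal array and at least 2-fold lower in Bcl-2 cells on the Bcl-2 array. The log2 ratio of the Bcl-2 array minus that of the withdrawal array was -4.44 for Col5a3, -2.65 for Sparc, -3.13 for Timp2 and -3.41 for Timp4. The difference was not tested: there is 1 array per comparison, and both share a control by label. Of the red channels, Col5a3 read 2269.8 in Bcl-2 cells and 11217 in vector cells without bFGF, Sparc 7588 and 18865, Timp2 8839 and 24193, and Timp4 1008.5 and 3300.2.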

How the results depend on the processing

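Values of the members named by the rule were recomputed under the planned settings other than a turned sign. Of these values, 321 moved by less than the spot error and 50 by more, without a change of sign in any gene past the 2-fold limit. The count leaves out the measured members added to account for all, and a shift below the spot error can exceed the SD over spots. Without loess 14 values of the withdrawal array moved by more than the spot error and 15 by less. Timp1 went from -0.05 to 0.23 there. That array then had 10 matrix genes 2-fold higher, where 4.36% of all genes were. With an offset of 10 it had 9, where 4.1% were. The Bcl-2 array had 10 lower genes without loess and with an offset of 10, where 2.65% of all genes were by each. By the brightest probe it also had 10, where 2.26% were. The ratio of Feature Extraction gave 14 matrix genes 2-fold higher and 2 lower for withdrawal, and 14 lower for Bcl-2 with a median of -0.58. The authors' deposited value table gave 14, 2 and 16, with a median of -0.66, where 8.6%, 1.97% and 7.28% of all genes passed. By the Feature Extraction ratio 17 other matrix genes passed the limit on each array, against 6 and 4 by the loess ratio. By the former, 8.17% of all genes were higher and 2.18% lower on the withdrawal array, and 3.50% and 6.74% on the Bcl-2 array. With the sign turned, the withdrawal array had 0 higher and 7 lower and a median of -0.26, with Col5a3 at -2.08, Mmp11 at -1.21, Mmp2 at -1.38, Sparc at -1.26, Timp2 at -1.34, Timp3 at -1.23 and Timp4 at -1.79. The Bcl-2 array had 8 higher and 0 lower and a median of 0.25, with Col1a1 at 1.10, Col1a2 at 1.71, Col3a1 at 1.08, Col5a3 at 2.36, Col6a2 at 1.10, Sparc at 1.39, Timp2 at 1.78 and Timp4 at 1.63. With the control channel of the other array, chosen after seeing the data, 0 genes were 2-fold higher for withdrawal and 2 were 2-fold lower for Bcl-2, with a median of -0.022, and among the genes past the 2-fold limit the sign turned for Col5a3 (-0.0581), Sparc (-0.0722) and Timp2 (-0.33) on the withdrawal array and for Timp4 (0.0767) on the Bcl-2 array. Short of the limit, Mmp2 (0.36), Mmp14 (0.11) and Mmp24 (0.0946), among others, also changed sign on the Bcl-2 array. So did Timp3 (0.32) and Mmp11 (0.34), each dim in a channel compared. On the withdrawal array Mmp14, short of the limit, went from 0.89 to -0.19. Further genes nearer to no difference changed sign and are not all named. The causes of these shifts were not tested. Each pair of channels joined across the arrays was already alike over all probes, with SDs of 0.14 and 0.15, so differences near 0 follow from that for most genes.

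By Feature Extraction, Mmp11 and Timp3, both dim in green there, were at 2.93 and 2.76 on the withdrawal array. On the Bcl-2 array Mmp11 was at -2.71, Timp3 at -1.97 and Mmp2 at -1.02 by that ratio, all past the limit. With 1 array per comparison no spread between cultures was measured, and most genes rest on 1 probe. No paired analysis was possible because each group has 1 sample.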

Other observations

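Of the 25 matrix genes not well above background in any channel, 12 were metalloproteinases and 5 were collagens. Not measuring a gene here sets no limit on its RNA beyond the lowest probe signals that were well above background, which were 86.8 in red and 98.1 in green on the withdrawal array and 78.2 and 96.3 on the Bcl-2 array.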
